A study of Mus musculus with 37 samples.

Results

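White and brown fat genes were followed across lymph node sites in 10 genes, out of 56351 rows of the deposited table. Ucp1 and Cidea are the brown fat genes, and Fabp4, Adipoq, Plin1, Cidec, Car3, Cfd, Retn and Lep are the white fat genes. The 10 are listed by symbol and were chosen from their measured levels by site in these same libraries, so their levels are given as a description and without a test. Of the 10, 9 passed the filter on low counts used for the fitted models, and Lep did not.

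RNA was taken from mouse lymph nodes and spleen by RiboTag, in which a Cre recombinase switches on a tagged copy of the ribosomal protein Rpl22 and ribosomes are pulled down by the tag together with their mRNA. All animals carried CD169 Cre KI/KI and were Rpl22HA homozygous, the isotype control included, so no group lacked either allele. Cre was driven by CD169 (Siglec1), a receptor of sinus macrophages, and the labels name the cell type as cd169 macrophages. The design text says that the tagged allele was activated in all tissues. No treatment, age or time was given.

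There were 11 node sites (mediastinal, deep cervical, super cervical, inguinal, iliac, ileal, ceco-colonic, jejunal, duodenal, liver and celiac) and the spleen, sampled with 3 libraries per site, while the isotype control was 1 library from jejunal node. Nothing in the labels says whether the 3 libraries of a site came from separate animals, so p-values measure only the spread between these libraries, which may be partly technical. Library totals ran from 221796 to 69124343 counts. The fitted models used the 21 libraries of the 6 nodes and spleen whose 3 libraries each held 1000000 counts or more. The other 5 node sites had 14 libraries below that depth in all, and there 3 counts alone can amount to several CPM. The share of 3 ribosomal features was 1.97% to 42.8% in the 21 libraries and 15.5% to 85.6% in the pull-downs outside them. Levels are given as CPM, the counts of a gene in each 1000000 counts of its library. A difference in CPM between 2 sites can come from fewer fat cells or from less RNA per fat cell. It can also come from other cells making the gene, from the pull-down or from the rest of the library. Bulk libraries cannot tell these apart.

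Fat cells come in a storing and a burning form. White adipocytes hold a single large lipid droplet and secrete hormones such as leptin and adiponectin, whereas brown adipocytes hold many small droplets and mitochondria that carry UCP1, a channel that lets protons leak across the inner membrane and releases the energy as heat. Lymph nodes lie embedded in fat pads, and in mice brown fat lies in the neck and around the large vessels of the chest. Fat cells are not macrophages, and their RNA is not what a macrophage pull-down is built to collect.

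RefSeq windows on GRCm38.p6, running from 250 bases before to 50 after a start site, were found for 7 of the 10 genes, as 8 promoters. Ucp1 and Adipoq are shown because they stand for the brown and the white group, whose levels parted between sites. The Ucp1 window lies at chr8:83290098-83290397 and the Adipoq window at chr16:23146286-23146585, both on the plus strand. In Ucp1 the capitals mark TGACG, the core of a cyclic AMP response element, 147 bases before the start site, and AGGTCA, the motif bound by nuclear receptors such as PPARs, 14 bases before it. In Adipoq the capitals mark CCAAT or its reverse complement ATTGG, at 34, 27 and 7 bases before the start site.
Ucp1: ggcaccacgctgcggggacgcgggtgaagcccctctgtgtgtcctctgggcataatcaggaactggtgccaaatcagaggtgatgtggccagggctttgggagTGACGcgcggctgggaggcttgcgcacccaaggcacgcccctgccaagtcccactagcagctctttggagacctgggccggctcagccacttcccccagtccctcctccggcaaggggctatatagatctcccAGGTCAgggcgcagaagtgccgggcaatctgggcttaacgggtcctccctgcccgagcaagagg
Adipoq: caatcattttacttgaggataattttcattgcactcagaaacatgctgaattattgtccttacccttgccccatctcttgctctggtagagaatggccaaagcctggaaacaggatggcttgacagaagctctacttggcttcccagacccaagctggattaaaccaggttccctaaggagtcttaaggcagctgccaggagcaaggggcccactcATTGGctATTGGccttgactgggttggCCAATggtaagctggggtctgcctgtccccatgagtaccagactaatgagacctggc
Each motif was searched on both strands, and the marked matches do not overlap each other. AGGTCA was present in 16.3% of all 32851 promoters of the same length and in 1 of the 8 promoters of these genes, that of Ucp1. TGACG was present in 20.8% of all promoters and again only in Ucp1 among these 8, and CCAAT in 37.4% of all promoters and only in Adipoq among these 8. The TATAAA motif (13.6% of all promoters) and a direct repeat of AGGTCA with any base between the copies (0.0396%) matched none of the 8. These matches describe the letters in the window and are not shown to be used in these cells.

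The brown fat genes split the sites cleanly. Ucp1 (ENSMUSG00000031710), the uncoupling protein of brown fat mitochondria, was high in the mediastinal and deep cervical nodes and at or near the detection floor in most others. The mediastinal libraries held 308, 237 and 263 CPM of Ucp1, and the deep cervical libraries held 125, 225 and 896 CPM. The inguinal libraries held 5.96, 4.13 and 2.10 CPM. The 6 chest and deep neck libraries all lay above every other pull-down, and the ranges of the mediastinal and deep cervical nodes overlapped. The mean was 66.3-fold higher in the mediastinal than in the inguinal node and 2100-fold higher than in the ileal node, where 8.95 counts in all were found across 3 libraries. The deep cervical mean was 102-fold above the inguinal mean, and 43.1-fold above it without deep cervical replicate 3.

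Low Ucp1 levels did not separate from the background of the method. The ileal libraries held 0.207, 0.126 and 0.0523 CPM, the ceco-colonic libraries 0, 0 and 2.08 CPM, and the super cervical libraries 0, 0.276 and 0.219 CPM. The spleen libraries held 1.17, 0.0992 and 0.817 CPM and the isotype library 1.17 CPM from 5.85 counts. These ranges overlapped one another, except that the ileal and super cervical libraries lay wholly below the isotype library. All 3 inguinal libraries lay above the isotype library and above all 3 spleen libraries.

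Cidea, a protein of the lipid droplet surface that is abundant in brown fat, repeated the pattern of Ucp1. The mediastinal libraries held 269, 146 and 213 CPM of Cidea and the deep cervical libraries 96.2, 132 and 746 CPM. The inguinal libraries held 2.81, 2.06 and 3.50 CPM and the ileal libraries 0.622, 0.755 and 1.41 CPM. All 6 chest and deep neck libraries again lay above all 30 other pull-downs, and the inguinal libraries lay above the ileal ones. Mediastinal Cidea was 75.0-fold above the inguinal and 225-fold above the ileal mean. In the super cervical node, the neighbouring neck site, Cidea stood at 0.757, 0 and 0.218 CPM, under 3 counts over the group.

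**Figure D1:**
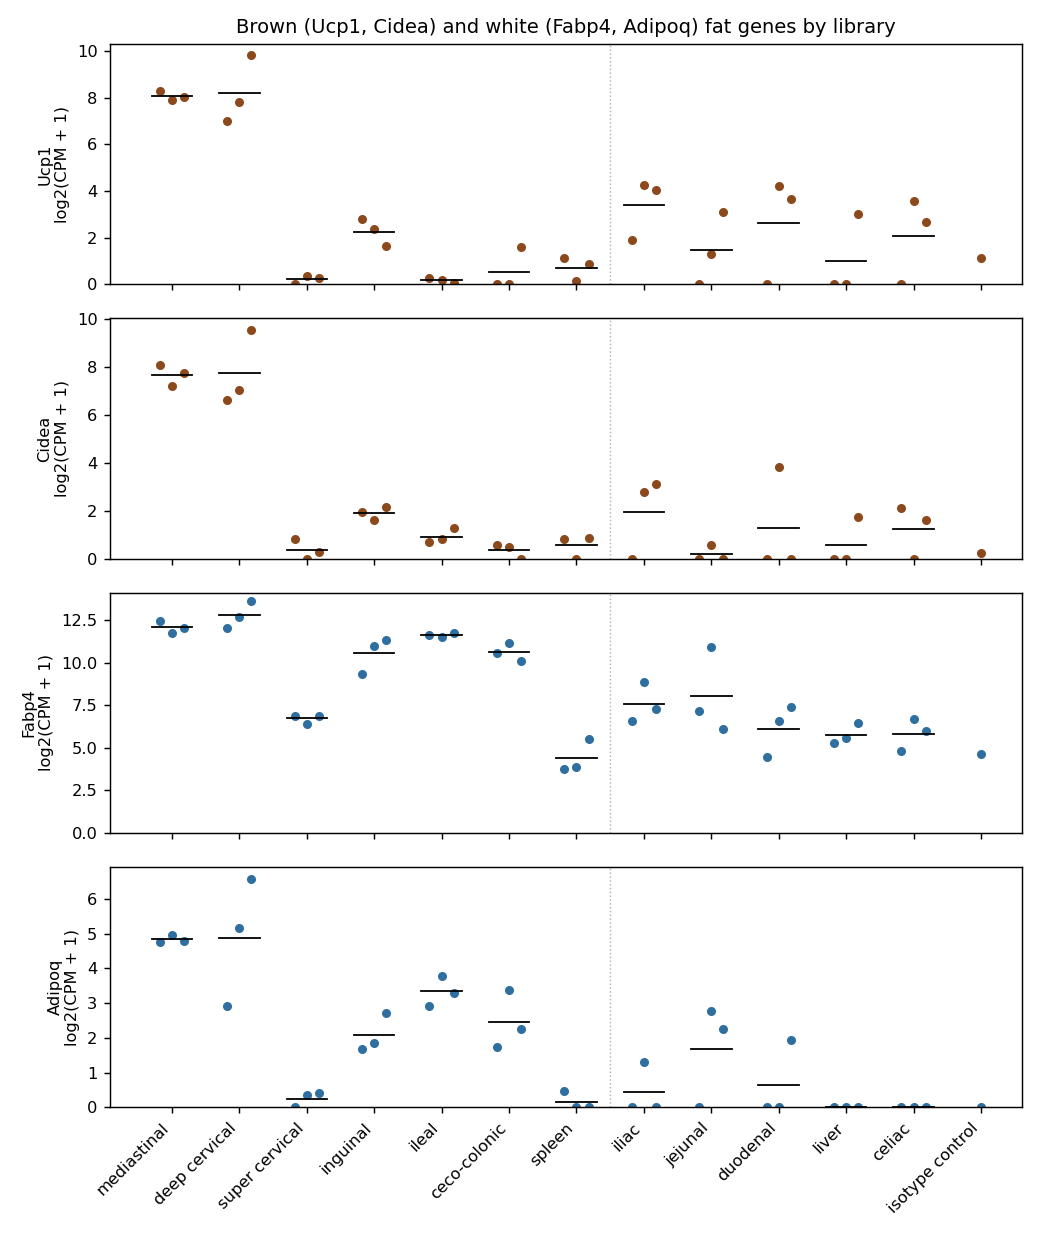
Levels of Ucp1, Cidea, Fabp4 and Adipoq in log2(CPM + 1) in each library (points) by site, with a bar at the mean of the log values; sites right of the dotted line were outside the fitted models. Ucp1 and Cidea stand high in the mediastinal and deep cervical nodes alone, while Fabp4 is also high in inguinal, ileal and ceco-colonic nodes and low in super cervical node and spleen.

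The ratio of Ucp1 to Cidea was alike in the brown-rich nodes. It ran from 1.15 to 1.63 in mediastinal and from 1.20 to 1.71 in deep cervical libraries, and from 0.601 to 2.12 in inguinal libraries. In the ileal node, where both genes were low, it ran from 0.0370 to 0.333, below all 9 of those libraries. The ileal Ucp1 counts behind this were 3.97, 3.996 and 0.984, against 12.0, 24.0 and 26.6 counts of Cidea.

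White fat genes followed a wider set of sites. Fabp4 (ENSMUSG00000062515), a fatty acid carrier abundant in adipocytes, was high in 5 of the 6 nodes of the fitted models. The part of endothelial cells and macrophages in the Fabp4 level was not tested. The mediastinal libraries held 5559, 3464 and 4150 CPM and the deep cervical libraries 4095, 6557 and 12400 CPM. The ileal libraries held 3103, 2921 and 3352 CPM, the inguinal libraries 642, 2028 and 2565 CPM and the ceco-colonic libraries 1529, 2280 and 1087 CPM. The lowest of these 15 libraries, inguinal replicate 1, stood well above the super cervical and spleen libraries, and the ileal and ceco-colonic ones held much Fabp4 with Ucp1 near 0. Mediastinal Fabp4 was 2.52-fold above inguinal and 1.41-fold above ileal Fabp4, far less than the ratios of Ucp1 for the same pairs of sites.

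The super cervical node and the spleen held little of it. Super cervical libraries held 117, 84.9 and 115 CPM of Fabp4, and spleen libraries 12.6, 13.4 and 45.4 CPM, against 24.1 CPM in the isotype library. The deep cervical mean was 72.9-fold above the super cervical mean, and the ileal mean was 131-fold above the spleen mean, or 240.2-fold above it without spleen replicate 3. All 3 super cervical libraries lay above all 3 spleen libraries and above the isotype library. The spleen range held the isotype value within it.

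Adipoq, which encodes the hormone adiponectin, and the lipid droplet genes Plin1 and Cidec ordered the sites much as Fabp4 did. Adipoq stood at 26.0, 30.4 and 26.7 CPM in mediastinal, 6.57, 34.4 and 94.8 in deep cervical and 6.62, 12.7 and 8.83 in ileal libraries. The ceco-colonic libraries held 2.35, 9.39 and 3.80 CPM of Adipoq and the inguinal libraries 2.19, 2.64 and 5.54 CPM. Spleen had 0.948 counts of Adipoq in 1 library and 0 in the other 2, and the isotype library had 0. The mediastinal libraries lay above all ileal, inguinal and ceco-colonic libraries, while deep cervical replicate 1 lay just below the ileal range.

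Cidec, which fuses lipid droplets into larger ones, averaged 159 ± 152 CPM (SD, n = 3) in deep cervical, 76.3 ± 10.98 in mediastinal and 40.8 ± 10.5 in ileal node. The ceco-colonic node averaged 17.7 ± 9.18 CPM, the inguinal node 15.5 ± 9.51 and the super cervical node 1.65 ± 0.653. The mediastinal range lay above the ileal range, which lay above the ceco-colonic range. Spleen had 3.23 counts of Cidec over its 3 libraries.

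Plin1, the perilipin that coats the droplet and guards it from lipases, had a raised background. It averaged 29.3 ± 4.30 CPM (SD, n = 3) in mediastinal and 51.3 ± 42.9 CPM in deep cervical node, and 15.8 ± 1.90 in ileal and 12.0 ± 2.97 in inguinal node. The isotype library nevertheless held 10.3 CPM of Plin1 from 51.4 counts, and spleen held 4.43, 5.22 and 6.54 CPM. The 3 ileal, 3 mediastinal and 3 deep cervical libraries lay above the isotype library, whereas the inguinal and ceco-colonic ranges included it. Plin1 per 1000 Fabp4 counts was 427 in the isotype library and 144 to 388 in spleen, against 4.11 to 13.3 in the 5 nodes rich in fat genes.

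Car3, a carbonic anhydrase abundant in fat and in slow skeletal muscle, averaged 245 ± 162 CPM (SD, n = 3) in deep cervical, 141 ± 8.34 in mediastinal and 69.6 ± 18.1 in ileal node. Inguinal and ceco-colonic nodes averaged 41.6 ± 17.6 and 39.7 ± 19.8 CPM, and super cervical node and spleen 10.1 ± 6.68 and 4.80 ± 1.93 CPM. Like Ucp1 and Cidea, Car3 had all 6 chest and deep neck libraries above all 30 other pull-downs. Skeletal muscle genes were high in the 3 deep cervical libraries as well, at 507 CPM or more in sum, and their part in the Car3 level was not tested.

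Secreted products of white fat ordered the sites less sharply. Cfd, the complement protease adipsin, averaged 2599 ± 1932 CPM (SD, n = 3) in deep cervical, 1295 ± 540 in mediastinal, 1081 ± 240 in ileal, 765 ± 501 in inguinal and 590 ± 409 in ceco-colonic node, against 28.5 ± 9.93 in super cervical node and 8.34 ± 6.99 in spleen. Each of the first 5 sites overlapped its neighbour in this order. Retn, the hormone resistin, averaged 250 ± 148 CPM in deep cervical, 194 ± 20.8 in ileal, 104 ± 64.1 in inguinal, 142 ± 98.9 in ceco-colonic and 89.0 ± 15.7 in mediastinal node. Resistin was the white fat gene in which the mediastinal node ranked lowest of these 5, and all neighbours in the order overlapped. The mediastinal range nevertheless lay below the ileal and the deep cervical ranges.

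Lep, which encodes the satiety hormone leptin, was found at few counts and in few sites. It averaged 1.90 ± 1.65 CPM (SD, n = 3) in deep cervical, 1.22 ± 0.612 in ileal and 0.992 ± 0.593 in mediastinal node. Lep reached 3 counts in all 3 mediastinal libraries (24.0 to 115.5 counts), all 3 ileal libraries (10.9 to 56.6 counts) and 2 of the 3 deep cervical libraries (5.96 and 59.8 counts). Every library of the other sites held fewer than 3 counts of Lep, and those of the spleen held 0. All neighbouring sites in the order of Lep overlapped.

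**Figure D2:**
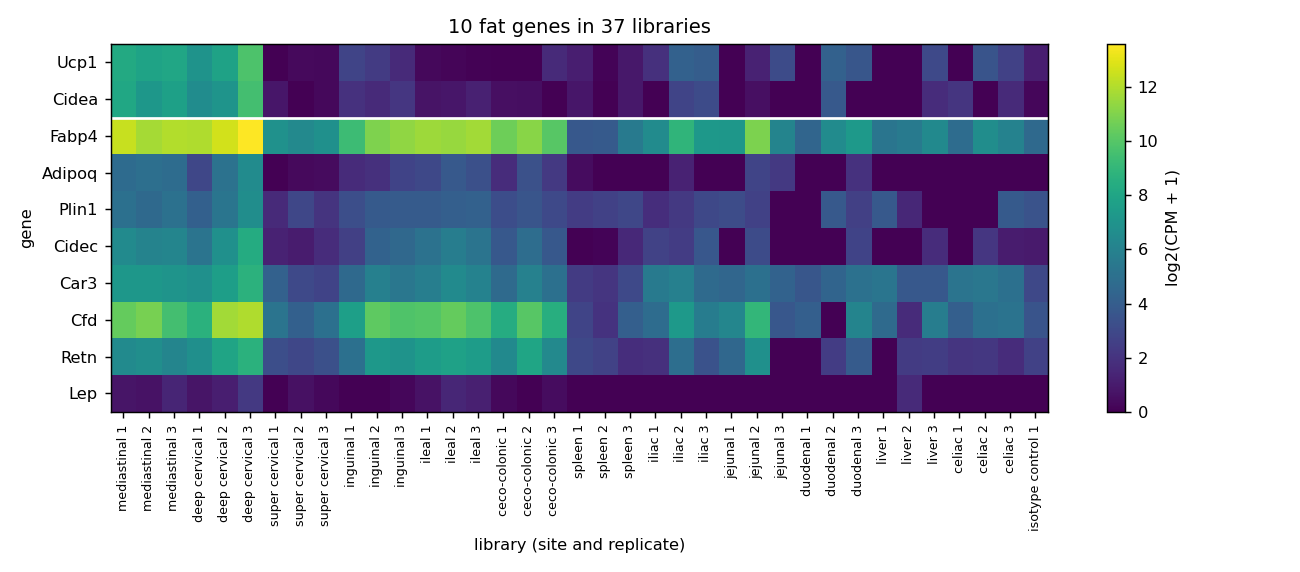
Level of each of the 10 genes, as log2(CPM + 1) by colour, in all 37 libraries ordered by site, with brown fat genes above the white line. The brown rows are bright in 6 libraries, those of the mediastinal and deep cervical nodes, and the rows of Fabp4 and Cfd are bright in the inguinal, ileal and ceco-colonic libraries as well.

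The deep cervical node held the highest mean of the 7 sites for 10 of 10 genes, where 23.3% of all genes tested had their highest mean there; the genes were chosen on these levels, so the count is a description. Deep cervical replicate 3 set much of this: it exceeded the mean of the other deep cervical libraries 2.20-fold for Cfd to 6.55-fold for Cidea. Without it, 3 of the 10 genes were highest in deep cervical (Fabp4, Car3, Cfd), 5 in mediastinal (Ucp1, Cidea, Adipoq, Plin1, Cidec) and 2 in ileal node (Retn, Lep). All 6 libraries of the deep cervical and mediastinal nodes lay above the 15 other libraries of the fitted models in 4 of 10 genes (Ucp1, Cidea, Fabp4, Car3), where 6.51% of all genes did so. With library totals that left out the ribosomal features, or with TMM-adjusted totals, 3 of these genes did so, Fabp4 being the exception.

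The composition of the fat signal differed between sites, and this measure does not depend on the library total. Ucp1 and Cidea together made up 7.36%, 6.33% and 8.34% of the counts of the 10 genes in mediastinal libraries, and 4.42%, 3.29% and 8.42% in deep cervical libraries. The share was 0.944%, 0.176% and 0.151% in inguinal libraries, and 0.0190%, 0.0189% and 0.0326% in ileal libraries. The mean was thus 7.35 ± 1.003% (SD, n = 3) in mediastinal node and 5.38 ± 2.70% in deep cervical node, and the ranges overlapped. All 6 of these libraries lay above all inguinal, ileal, ceco-colonic (0.0114% to 0.135%) and super cervical (0.229% to 0.426%) libraries. All 3 inguinal libraries lay above all 3 ileal libraries.

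Where fat genes were few, the share was not resolved. Spleen libraries gave 5.75%, 0.341% and 2.11% from 5, 1 and 2 counts of brown genes, and the isotype library gave 2.36% with a 95% Wilson interval of 1.15% to 4.78%. Iliac libraries gave 1.59%, 3.19% and 8.13%, from 63, 471 and 246 counts of the 10 genes, with an interval of 5.32% to 12.2% for the last. The iliac node is thus the site of low depth with the highest mean Ucp1 level, 12.0 ± 8.10 CPM, and 25.7 counts stand behind it. Intervals cover counting error only, since copies made by PCR are not independent molecules.

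**Figure D3:**
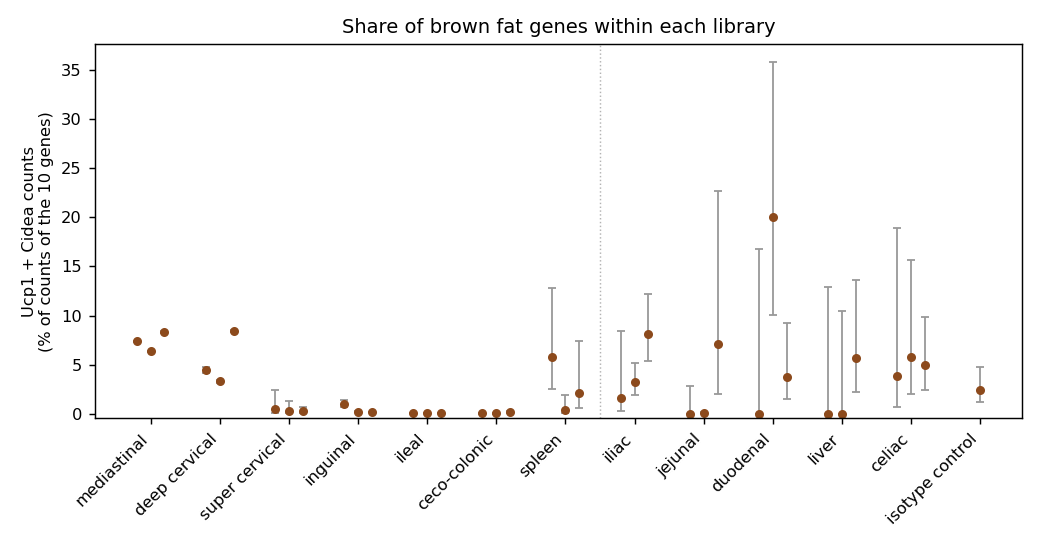
Share of the counts of the 10 genes that fell on Ucp1 and Cidea, in percent, for each library (points) with 95% Wilson intervals (bars); sites right of the dotted line were outside the fitted models. Mediastinal and deep cervical libraries sit between 3.29% and 8.42%, ileal libraries between 0.0189% and 0.0326%, and the intervals are wide in spleen and in the shallow libraries.

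Ratios among the white fat genes were compared within libraries of the 5 nodes rich in fat genes, and resistin parted the sites most. Retn per 1000 Fabp4 counts stood at 16.3, 29.97 and 17.5 in mediastinal and 26.1, 36.8 and 32.5 in deep cervical libraries. It ran from 48.4 to 75.4 in inguinal, 55.3 to 74.6 in ileal and 57.4 to 112 in ceco-colonic libraries, and from 73.4 to 77.6 in the super cervical node. The 6 chest and deep neck libraries lay below the 12 libraries of the other 4 nodes.

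Other ratios moved the opposite way or did not part the sites. Adipoq per 1000 Fabp4 counts ran from 4.67 to 8.77 in mediastinal node, above the ranges of inguinal, ileal (2.13 to 4.35) and ceco-colonic node. Cidec ran from 16.0 to 19.6 in mediastinal node, above the inguinal (7.69 to 9.09) and ceco-colonic (8.01 to 12.4) ranges. The ileal Cidec range, 10.7 to 18.1, lay above the inguinal range too. The deep cervical ranges were wide, 1.60 to 7.65 for Adipoq and 9.10 to 26.6 for Cidec. For Plin1 the mediastinal range lay above the ileal range alone, and for Car3 and Cfd all 10 pairs of sites overlapped.

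**Figure D4:**
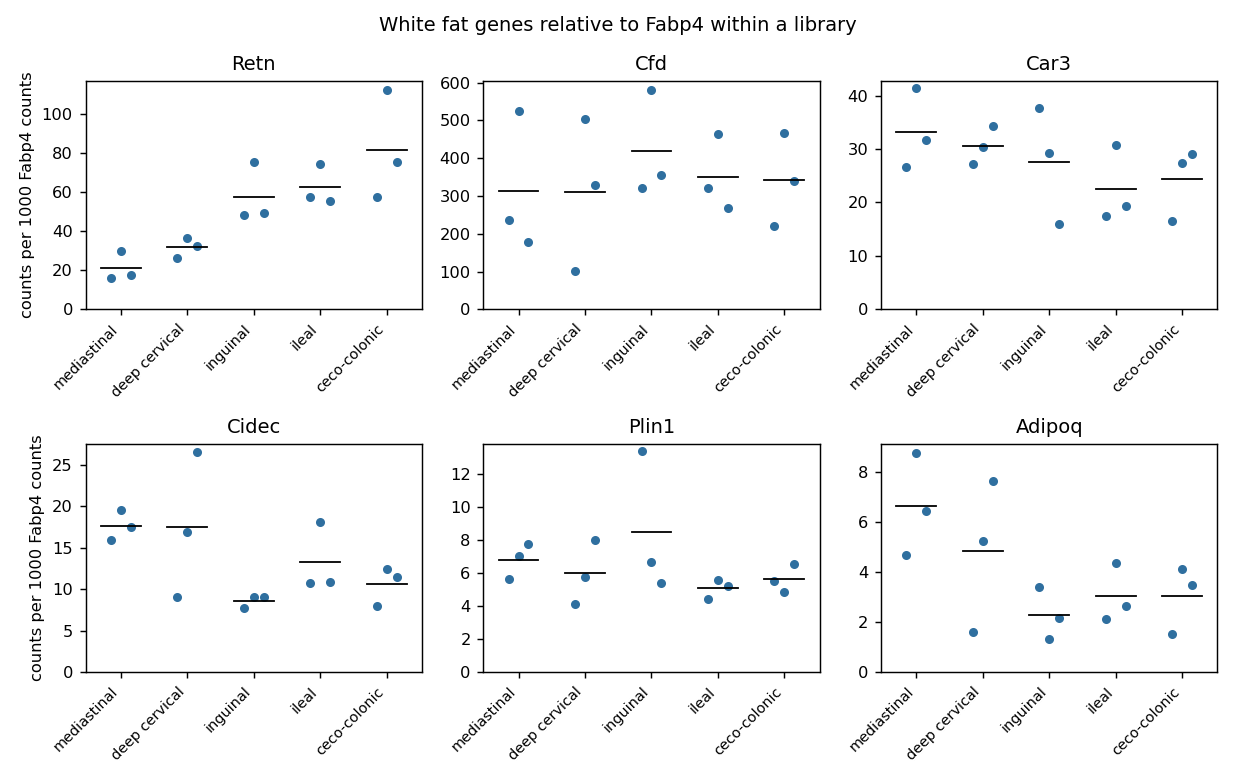
White fat genes as counts per 1000 Fabp4 counts in each library (points) of the 5 nodes rich in fat genes, with a bar at the site mean and an axis from 0 in each panel. The Retn points of the mediastinal and deep cervical nodes, 16.3 to 36.8, lie below those of the other 3 nodes, 48.4 to 112.

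Within a site, libraries with more of a white fat gene tended to hold more of the others. Over 21 libraries, deviations of log2(CPM + 1) from the site means had Pearson r between 0.205 and 0.908 in the 28 pairs of white fat genes (median 0.665), with Fabp4 and Cidec highest at 0.908. In the 16 pairs of a brown with a white gene r ran from 0.0699 to 0.661 (median 0.514), and Ucp1 with Cidea gave 0.601. These values describe libraries that share a depth and a dissection, and carry no test.

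Genes with the most similar pattern were picked by Pearson r of log2(CPM + 1) across the same 21 libraries, among 10892 genes. The 8 nearest to the mean of the white fat genes were Plin4 (r = 0.98), Adig (0.97), Thrsp (0.96), Cyp2e1 (0.96), Nnmt (0.94), Prelp (0.94), Me1 (0.94) and Ephx2 (0.94). Plin4 is a droplet coat protein, Adig is adipogenin, Thrsp promotes lipid synthesis and Me1 is malic enzyme. The 8 nearest to Ucp1 and Cidea were Fabp3 (r = 0.98), Cox7a1 (0.98), Aspg (0.97), Cpt1b (0.97), Lypd2 (0.97), Elovl3 (0.96), Tspan18 (0.95) and Clstn3 (0.95). Fabp3 is the fatty acid carrier of heart and muscle, Cox7a1 a cytochrome oxidase subunit and Cpt1b the muscle-type carnitine transferase, and all 3 are made by muscle as well as by brown fat.

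**Figure D5:**
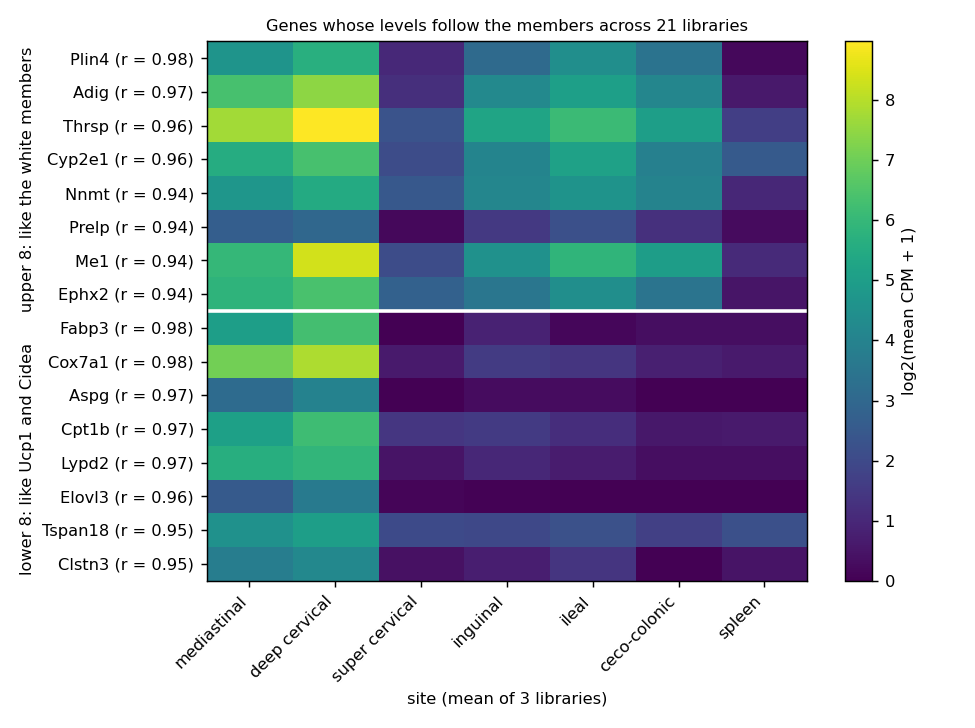
Mean level at each of 7 sites, as log2(mean CPM + 1) by colour, of the 8 genes nearest to the white fat genes (above the line) and the 8 nearest to Ucp1 and Cidea (below it), with Pearson r over 21 libraries in brackets. The upper genes stay visible in ileal, inguinal and ceco-colonic nodes, while the lower ones fade there and are bright in mediastinal and deep cervical nodes.

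Other brown fat genes, not among the 10, were tested, although their list was chosen with earlier results of these data known. The contrast set the mean of the super cervical, deep cervical and mediastinal nodes against the mean of the inguinal, ileal and ceco-colonic nodes, with edgeR's quasi-likelihood test and Benjamini-Hochberg adjustment over 16836 genes. Of 18 brown fat genes tested (19 listed), 13 were higher in the chest and neck nodes and 0 lower, where 22.0% of all genes were higher and 20.2% lower. Their median log2 difference was 1.66, against 0.096 for all genes, and it was also 1.66 with groups at 0 counts set to 3 counts. Elovl3, 1 of the 13, held at most 2.16 counts in any library of the fitted models outside the deep cervical and mediastinal nodes. It passed the filter on low counts only through libraries where it was high, and could hardly come out lower. The count of 13 is therefore partly fixed in advance and is given as a description. The list shares its libraries with Ucp1 and Cidea and is no independent support for their pattern.

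Among them, Cox7a1 was higher by 4.12 ± 0.36 (log2 difference ± SE, adjusted p = 4.39e-08), with 178.8, 98.7 and 126 CPM in mediastinal and 1.22, 2.30 and 2.37 CPM in inguinal libraries. Cpt1b was higher by 3.68 ± 0.37 (adjusted p = 3.27e-07). Cox8b, another cytochrome oxidase subunit, was higher by 2.46 ± 0.33 (adjusted p = 1.19e-05) and Prdm16, a regulator of brown fat fate, by 1.49 ± 0.29 (adjusted p = 0.000481). The super cervical node, on the higher side of the contrast, did not share this for Cox7a1 and Cox8b, nor for the list in sum. Its libraries held 0, 0.545 and 1.21 CPM of Cox7a1. They held 0.758, 0.819 and 1.77 CPM of Cox8b, against 12.2, 32.0 and 26.8 CPM in inguinal libraries. Mean Cpt1b was 1.67 CPM in super cervical, 1.89 in inguinal, 1.26 in ileal and 0.483 in ceco-colonic node. The 19 listed genes summed to 56.7 to 67.2 CPM in super cervical libraries. The sums were 95.6 to 103 CPM in inguinal, 90.1 to 102 in ileal and 50.4 to 62.4 in ceco-colonic libraries. Prdm16, at 3.40 to 3.76 CPM in super cervical libraries, lay above the inguinal range of 0.575 to 2.95 CPM. Elovl3, a fatty acid elongase induced by cold, passed too (adjusted p = 0.000246), with 3.37 to 5.67 CPM in mediastinal and 5.04 to 24.5 CPM in deep cervical libraries, and 0 counts in ileal and ceco-colonic nodes, so that its fitted size is no measure. Slc27a2, a fatty acid importer with 0 counts in the ceco-colonic node, passed likewise (adjusted p = 0.00042). Fabp3 (adjusted p = 0.995) and Otop1 did not pass, and both had 0 counts in the super cervical node. Their standard errors were 153.8 and 11820, so the test could not judge them. With groups at 0 counts set to 3 counts, their log2 differences were 5.20 and 4.55. Fabp3 stood at 38.8, 22.8 and 33.7 CPM in mediastinal and 36.98, 59.1 and 137 CPM in deep cervical libraries.

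Adipocyte genes of other roles were tested in the same contrast. Of 33 tested (36 listed), 17 were higher in the chest and neck nodes and 1 lower, with a median log2 difference of 0.81. Without super cervical replicate 3, 8 were higher, and without deep cervical replicate 3, 12. By role, 4 of 5 transcription factors, 8 of 12 genes of fatty acid and triglyceride synthesis, 2 of 6 of lipid droplets and lipolysis, 2 of 5 of lipid, glycerol and glucose uptake and 1 of 5 of signalling were higher. As 22.0% of all genes were higher, nothing is read from the small counts of the lipid droplet, uptake and signalling groups. Pparg, the master regulator of fat cells, was higher by 1.98 ± 0.43 (adjusted p = 0.00103) and Gpd1, which supplies the glycerol backbone of triglyceride, by 2.57 ± 0.43 (adjusted p = 0.000155). Aqp7, a glycerol channel, was lower (-1.10 ± 0.24, adjusted p = 0.00101). The super cervical node, which is in the higher group of this contrast, held few fat transcripts: Gpd1 stood at 0.751 to 2.05 CPM there, and at 54.4 to 1011 CPM in deep cervical libraries.

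The nodes were also set against the spleen, whose capsule encloses no fat pad. Of the 33 adipocyte genes 16 were higher in the 6 nodes and 2 lower (Aqp7 and Acaca), where 34.3% of all genes were higher and 27.1% lower, and the median log2 difference was 1.78 against 0.348 for all genes. Plin4 was higher by 6.18 ± 0.95 (adjusted p = 7.13e-06) and Gpam, the first enzyme of triglyceride synthesis, by 3.74 ± 0.52 (adjusted p = 1.99e-06). Of the 18 brown fat genes 7 were higher and 3 lower (Dio2, Esrrg, Zic1), with the share higher near that of all genes. Elovl3, Otop1 and Fabp3, with 0 counts in at least 1 group, had standard errors of 877 or more and could not be called. The median log2 difference of the brown fat genes was 1.48, or 1.44 with groups at 0 counts set to 3 counts. Without spleen replicate 2, 4 brown fat genes were higher. Among the 6 nodes, 17 of 18 brown fat genes and 29 of 33 adipocyte genes differed in an F test, where 60.9% of all genes did.

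Receptors for the hormones of fat were measured beside them. Lepr, the leptin receptor, was lower in the chest and neck nodes (-1.10 ± 0.30, adjusted p = 0.00602) and higher in nodes than in spleen (2.38 ± 0.65, adjusted p = 0.00307). It stood at 21.5 to 26.3 CPM in ileal and 6.31 to 14.6 CPM in ceco-colonic libraries, but at 1.30 to 4.35 CPM in inguinal libraries, below all 3 mediastinal libraries at 5.41 to 6.34 CPM. The direction of the contrast therefore did not hold for the inguinal against the mediastinal node. The adiponectin receptors Adipor1 and Adipor2 were higher in nodes than in spleen by 0.72 ± 0.31 and 1.20 ± 0.42 (adjusted p = 0.0439 and 0.0155). Without spleen replicate 2, 1 receptor gene was higher, and with all 36 pull-down libraries in the fit 0 receptor genes passed in either contrast.

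Muscle genes were high in the deep neck. Of 10 skeletal muscle markers 8 were higher in the chest and neck contrast, where 22.0% of all genes were higher. Their summed level was 12160, 7064 and 507 CPM in deep cervical and 28.9 to 59.0 CPM in mediastinal libraries. It was 4.60 to 17.3 CPM in the other 4 nodes, the super cervical node among them. Heart muscle markers summed to 18.7, 34.5 and 5610 CPM in deep cervical and 142, 224 and 246 CPM in mediastinal libraries. Of these, 2 of 5 tested were higher, too few to read against the share of all genes. Deep cervical replicate 3, the library with the most of every fat gene of the 10, thus had the most heart and the least skeletal muscle signal of its site. Deep cervical replicate 1, with the most skeletal muscle signal, had the lowest Ucp1, Cidea and Fabp4 of its site. The part of skeletal and heart muscle in the levels of Car3, Cox7a1, Cox8b, Cpt1b and Fabp3 was not tested.

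Macrophage markers ranked the sites in another order than the fat genes. The 12 markers summed to 9553 CPM or more in ileal libraries, to 5013 to 5973 CPM in mediastinal, 1531 to 2573 CPM in deep cervical and 1276 to 1587 CPM in inguinal libraries, and to 37.3 CPM in the isotype library. Sites of low depth came nearer to the isotype value, with 20.5 to 229 CPM in duodenal, 72.0 to 151 in liver and 50.0 to 177 in celiac libraries. Duodenal replicate 1 lay below the isotype library. Siglec1, whose locus drives the Cre, stood at 0 to 3.33 CPM in all 37 libraries, while Marco, a scavenger receptor of sinus macrophages, stood at 647 to 1189 CPM in deep cervical libraries and at 17.0 CPM in the isotype library. Other lists were tested in the chest and neck contrast, where 22.0% of all genes were higher and 20.2% lower. Fibroblast and fat precursor genes had 4 of 8 higher and 0 lower, endothelial genes 5 of 10 higher and 3 lower, macrophage genes 4 of 10 higher and 0 lower, and mesothelial genes 1 of 4 higher and 1 lower. Their part in the fat gene levels was not tested.

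The isotype control was made from jejunal node, where fat genes were uneven. Fabp4 stood at 144, 1924 and 68.1 CPM in the 3 jejunal pull-downs and at 24.1 CPM in the isotype library, and the mean was 29.5-fold above it, or 4.39-fold above it without jejunal replicate 2. Cfd stood at 74.6, 512 and 12.0 CPM against 10.6, and Retn at 22.1, 111 and 0 CPM against 5.29. Jejunal replicate 2 was the highest of the site in all 3 genes. The jejunal pull-downs lay above the isotype library throughout for Fabp4, Cfd and Car3. For Cfd the excess of replicate 3 was not resolved, since 3 counts make 11.7 CPM in that library. For Plin1 all 3 jejunal libraries lay below the isotype library, at 7.81, 5.18 and 0 CPM against 10.3. Ucp1 had 0 to 2.86 counts in each jejunal library, fewer than 3, and its presence there was not detectable at this depth.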

How the data were processed

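The authors deposited estimated counts per gene for 37 libraries. Kallisto, limma and edgeR were used per the submitters' processing notes, which name the builds GRCm39 and mm10 together; tool versions and the step from transcripts to genes are not given in the sources used here. Of the values 32.8% were not whole with no tolerance, and all were rounded before testing. Kallisto shares reads between similar transcripts, so paralogs are uncertain, and whether counting used strand is not given in the sources used here. The 211 rows without a symbol were left out.

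Levels are CPM on plain library totals, with SD over 3 libraries. Tests used edgeR 4.0.16 in R 4.3.3 (TMM, filterByExpr with minimum count 10 and minimum total 15, robust quasi-likelihood fit, 1 mean per group) on 21 libraries of 1000000 counts or more, which left 16836 genes. A gene was called at an adjusted p under 0.05. The scripts were tested on simulated data. The 10 genes and the lists were chosen with earlier results of these data known. The 10 genes were named in full, and of each list up to 4 called genes per direction with the largest difference, with others named for their role after their values were seen. The 8 most similar genes per group had to reach 10 CPM in 1 library. A fold against 0 counts is a bound from 3 counts over the group, and no fold is given against 1 to 3 counts. Intervals are 95% Wilson intervals. Alternatives were DESeq2 1.42.0, RLE size factors, no filter, all 36 pull-down libraries, other totals, a replicate block and leaving out each library. The isotype library entered no model.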

Additional observations from a re-analysis of the deposited data

Results flagged for a closer look

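Some of the 10 genes stood above the isotype library in every library of sites too shallow for the fitted models. Each group below had all 3 libraries above the upper end of the 95% Poisson interval of the isotype library, and no test was made. The counting error of the flagged libraries themselves was not used. Some of their counts were small, with 20.2 counts of Car3 over the 3 duodenal and 19.8 over the 3 liver node libraries. Fabp4 averaged 238.5 CPM in iliac, 711.9 CPM in jejunal and 57.5 CPM in liver node, against 24.1 CPM in the isotype library. Car3 averaged 43.7 CPM in iliac, 36.2 CPM in celiac, 23.7 CPM in jejunal, 21.3 CPM in duodenal and 20.7 CPM in liver node, against 6.81 CPM. Cfd averaged 77.6 CPM in iliac and 28.0 CPM in celiac node, against 10.6 CPM. Ribosomal features took more of these libraries, and totals without them raised the means of the liver node to 279 CPM for Fabp4 and 95.7 CPM for Car3.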

How the results depend on the processing

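Counts of calls kept within 1.5 times their value with DESeq2 and with RLE size factors. With no filter on low counts, the spleen exceeded the nodes in 6942 genes and 1 brown fat gene was lower in the chest and neck nodes. With all 36 pull-down libraries, 2320 genes were higher and 2087 lower in the chest and neck nodes, with 0 receptor genes lower, and against spleen 4 brown fat genes and 0 receptor genes were higher; the cause was not tested. With the replicate block, 1 brown fat gene was lower in the chest and neck nodes and no other call count moved by over 1.5 times. Same-numbered libraries had deviations with r from -0.372 to 0.48 (median 0.0215 over 63 pairs), so not every pair exceeded 0.1 and the numbers were not taken as pairs; 13 of 21 libraries correlated best with their own number, a hint from the data alone. Leaving out each library in turn gave 8541 to 12191 genes in the F test. In the chest and neck contrast it gave 2096 to 4430 genes higher and 2745 to 4096 lower, 8 to 19 adipocyte genes higher and 1 to 3 lower, and 11 to 15 brown fat genes higher and 0 to 1 lower. Against spleen it gave 5311 to 6304 genes higher and 3948 to 5547 lower, 13 to 20 adipocyte genes higher, 4 to 8 brown fat genes higher and 1 to 3 receptor genes higher. The lowest counts of genes and adipocyte genes higher came without super cervical replicate 3, and those of brown fat and receptor genes against spleen without spleen replicate 2. The log2 ratios of mean CPM were rerun for 2 pairs of sites in Ucp1 and 3 in Fabp4, and kept their sign; Ucp1 in deep cervical over inguinal node ran from 5.43 to 7.11. The brown share was rerun for the mediastinal and deep cervical nodes without each library, and ratios between genes were not rerun. Of 120 site means of these genes, 36 moved by more than their spread with totals without ribosomal features and 19 with TMM-adjusted totals. Depth limits the duodenal, liver, celiac, iliac and jejunal values.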
